A study of Mus musculus with 12 samples.

Results

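Macrophages secrete cytokines that raise or restrain inflammation, and 10 of their genes were followed here: Tnf, Il1a, Il1b, Il1rn, Il6, Il10, Il12b, Il15, Il18 and Il27. The genes were chosen by symbol, with earlier results of these data known, and all 10 were among the 56748 genes of the count table. Of these 10, 8 had enough counts to be tested with 15033 genes in all, and Il6 and Il12b did not pass that filter. The cells were M2-like BMDM, macrophages grown from the bone marrow of C57BL/6J mice in 20 ng/mL M-CSF and polarized for 48 hours with IL-4 at 10 ng/mL, and every condition shared this preparation. They were then kept for 72 hours in 1 of 4 conditions, with 3 libraries each: untreated control, rIFNβ, eGFP supernatant and Ifnb1eGFP supernatant. Both supernatants came from the mouse melanoma line YUMM5.2, whose transduced cells carry eGFP alone or Ifnb1 with eGFP behind a tetracycline response promoter and had been given Dox at 1 μg/mL. Dilution brought the Ifnb1eGFP supernatant to an IFNβ concentration of 1500 pg/mL, recombinant IFNβ (rIFNβ) was set to the same concentration, and the eGFP supernatant was diluted by the same ratio. The design gives 3 mice per condition, and does not say whether equally numbered libraries came from the same mouse.

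Type I interferons such as IFNβ act through their receptor IFNAR and induce genes that carry interferon-stimulated response elements. Tnf and the agonists of the interleukin 1 family are activated mainly through NF-κB and AP-1 after pattern recognition, and IL-1β and IL-18 are made as precursors that caspase-1 cleaves. IL-10, IL-27 and the interleukin 1 receptor antagonist encoded by Il1rn restrain inflammation. IL-15, presented on its receptor IL-15Rα, sustains NK cells and memory CD8 T cells, and IL-18 acts with it and with IL-12 on NK and T cells. M2-like macrophages polarized by IL-4 are known for a high output of the antagonist and a low output of inflammatory cytokines.

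Library totals ran from 31526004 to 45348410 counts, and levels are given as counts per 1000000 on library sizes scaled by TMM (CPM). All 7 macrophage markers (Adgre1, Csf1r, Cd68, Itgam, Lyz2, Mertk and Fcgr1) were expressed, and with IFNβ 4 of them rose in both media and 2, Lyz2 and Itgam, fell. Their summed level was 14121 to 15262 CPM in untreated and 17928 to 18457 CPM in eGFP supernatant libraries, against 10286 to 10581 CPM with Ifnb1eGFP supernatant and 9648 to 9821 CPM with rIFNβ. Lyz2 was the largest part of this sum, with condition means of 9415, 12396, 4111 and 3472 CPM in the same order. The sum thus mainly follows Lyz2 and does not describe the macrophage markers that rose. The 5 IL4-driven markers summed to between 743 and 1023 CPM in every library, of which Arg1 had under 1 CPM in each condition mean. Most of the sum came from Mrc1, with condition means of 660 to 825 CPM. Chil3 alone among the 5 was called, higher with IFNβ in both media (log2 fold change 0.775 and 0.668). Markers of other cells were lower, and none of them was at 0 in all libraries. The 6 neutrophil markers summed to 4.87 to 6.23 CPM without IFNβ and 0.237 to 1.01 CPM with it, mostly from S100a8. Ly6g had 5 counts in all libraries together. The 5 dendritic cell markers summed to 1.22 to 1.71 CPM without IFNβ and 0.273 to 0.455 CPM with it, mostly from Zbtb46. Of the others, Flt3, Cd209a, Siglech and Xcr1 had 6, 9, 1 and 18 counts in all libraries together. Markers of T and NK cells summed to 0.223 to 0.577 CPM without IFNβ and 0 to 0.0758 CPM with it, and Klrb1c among them was called lower in both media. Klrb1c supplied nearly all of the sum without IFNβ, with means of 0.33 CPM in untreated and 0.548 CPM in eGFP supernatant libraries. Cd3e, Cd3d, Trac and Ncr1 had 2, 4, 2 and 3 counts in all libraries together. Those of Cd3e, Trac and Ncr1 were all in libraries with IFNβ. Markers of B cells reached at most 0.328 CPM, of mast cells and basophils 1.36 CPM and of melanoma cells 0.81 CPM. The 3 fibroblast markers summed to 26.7 to 74.4 CPM without IFNβ and 42.8 to 68.3 CPM with it, with Dcn called higher (log2 fold change 1.80 and 1.35) and Col1a1 lower (-1.03 and -1.08). The part of these cells in the results was not tested, and in bulk RNA fewer cells of a type and less RNA per cell cannot be told apart. In the second eGFP supernatant library interferon-stimulated genes were above those of the other 5 libraries without IFNβ, with Irf7 at 45.2 CPM against at most 11.3 CPM and Ifit2 at 139 CPM against at most 21.1 CPM, so values without it are given where a call changed.

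The first question was which of the 10 genes responded to IFNβ, whether melanoma cells or a recombinant protein supplied it. Il10, Il15, Il18, Il27 and Il1b were higher with IFNβ in both media, Il1rn was lower in both, and Il1a was higher with rIFNβ alone at the threshold used. A gene was called at an adjusted p of at most 0.05 in edgeR's quasi-likelihood test. With Ifnb1eGFP supernatant against eGFP supernatant 5 of the 8 tested genes were higher and 1 lower, beside 30.1% and 25% of all tested genes. With rIFNβ against untreated control 6 were higher and 1 lower, beside 30.7% and 24.6% of all tested genes. The median log2 fold change of the 8 genes was 1.299 and 1.58, against 0.03 and 0.04 over all tested genes. Because the genes were chosen with earlier results of these data known, these counts and medians are descriptions. Under a stricter threshold, where the log2 fold change reaches 2 in size and the adjusted p is no higher than 0.01, Il10, Il15 and Il18 were higher in both comparisons, where 2.77% and 2.99% of all tested genes were.

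**Figure D1:**
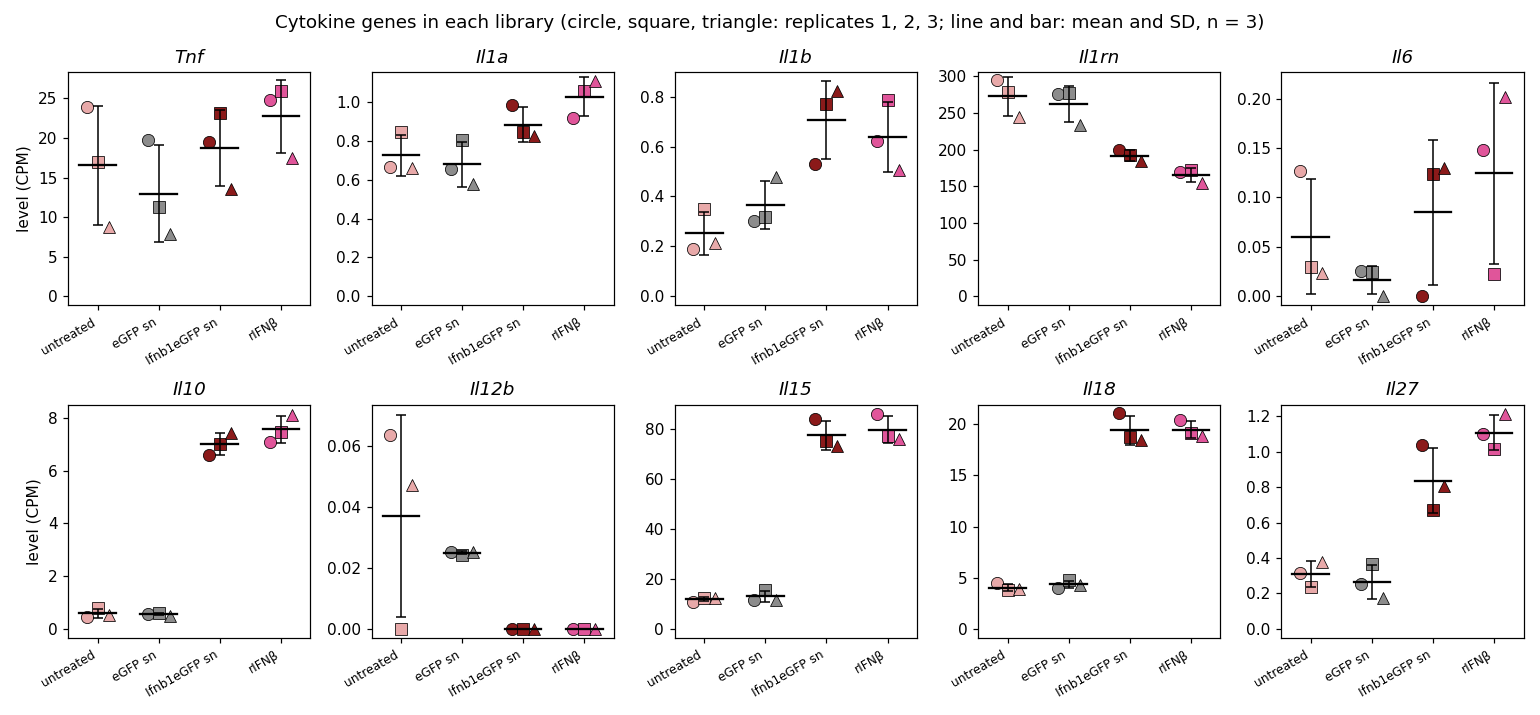
Level of each of the 10 cytokine genes (CPM, linear axes that differ between panels) in the 12 libraries, by condition, with the mean and SD of 3 libraries. Il10, Il15 and Il18 separate the 6 libraries with IFNβ from the 6 without, Il1rn does so downward, Tnf overlaps, and Il6 and Il12b stay under 0.21 CPM.

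Il10 (ENSMUSG00000016529, GRCm39 chr1:130947581-130952711, plus strand), which encodes the main anti-inflammatory cytokine of macrophages, changed most of the 8 tested genes on the log2 scale. Its level was 0.445, 0.790 and 0.520 CPM in the untreated libraries and 0.581, 0.609 and 0.502 CPM with eGFP supernatant. After Ifnb1eGFP supernatant it was 6.60, 7.00 and 7.43 CPM, and with rIFNβ 7.09, 7.47 and 8.11 CPM. Every library with IFNβ lay above every library without it, and those without IFNβ held only 14 to 27 counts each. The rise was 12.4-fold (95% CI 9.67 to 15.8, adjusted p = 8.31e-09) with Ifnb1eGFP supernatant and 12.9-fold (10.0 to 16.5, adjusted p = 6.97e-09) with rIFNβ. Il10ra and Il10rb, the chains of its receptor, rose with it, as given below.

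Il27 (ENSMUSG00000044701, chr7:126188181-126194209, minus strand) encodes the p28 chain of interleukin 27, a cytokine of myeloid cells that acts on T cells. Untreated libraries had 0.318, 0.234 and 0.379 CPM and eGFP supernatant libraries 0.253, 0.366 and 0.176 CPM. Ifnb1eGFP supernatant libraries had 1.04, 0.671 and 0.804 CPM and rIFNβ libraries 1.10, 1.01 and 1.21 CPM. The libraries with and without IFNβ did not overlap, although the gene stood on just 7 to 48 counts per library. It rose 3.13-fold (95% CI 2.01 to 4.86, adjusted p = 0.000513) and 3.51-fold (2.28 to 5.42, adjusted p = 0.000208). It shares 116 bases with Apobr on the opposite strand, which had 133170 counts over all libraries against 301 for Il27. Ebi3, the other chain of interleukin 27, was expressed at 14.9 ± 1.60 CPM in untreated, 16.7 ± 2.33 CPM in eGFP supernatant, 29.4 ± 4.06 CPM in Ifnb1eGFP supernatant and 35.6 ± 2.50 CPM in rIFNβ libraries (SD, n = 3). Its log2 fold change was 0.82 (adjusted p = 0.00015) and 1.26 (adjusted p = 4.93e-06), so both chains rose in both media.

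Il1rn (ENSMUSG00000026981, chr2:24226865-24241506, plus strand), the gene of the secreted and intracellular interleukin 1 receptor antagonist, was the only tested member called lower. Untreated libraries had 295.6, 278.3 and 243.9 CPM and eGFP supernatant libraries 276.5, 277.2 and 233.8 CPM. Ifnb1eGFP supernatant libraries had 198.9, 193 and 183.9 CPM and rIFNβ libraries 169.5, 172.8 and 155 CPM. All libraries with IFNβ lay below all libraries without it. Those with rIFNβ also lay below those with Ifnb1eGFP supernatant, a difference that edgeR's test did not call (adjusted p = 0.563). The level with IFNβ was 0.731 of that without in supernatant (95% CI 0.644 to 0.830, adjusted p = 0.000728) and 0.608 without supernatant (0.535 to 0.691, adjusted p = 1.99e-05). Il1rn remained the most abundant of the 10 transcripts per length in each condition. Its promoter is printed because it is the member that fell. RefSeq lists 3 start sites for it, and the sequence of the most upstream one, 250 bases before to 50 after the start on the gene's strand, lies at chr2:24226622-24226921 of GRCm39. Capitals mark a match to the AP-1 motif TGANTCA that begins at -141 from the start site. The promoters of the other start sites hold no such match, and which start site these cells used was not tested.
Il1rn promoter: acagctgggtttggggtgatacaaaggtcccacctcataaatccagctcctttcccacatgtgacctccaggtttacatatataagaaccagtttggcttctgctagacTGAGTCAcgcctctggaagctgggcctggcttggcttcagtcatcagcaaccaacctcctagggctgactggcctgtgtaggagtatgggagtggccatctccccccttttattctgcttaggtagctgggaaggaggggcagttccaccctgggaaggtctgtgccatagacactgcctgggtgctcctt

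Il1a (ENSMUSG00000027399, chr2:129140291-129152098, minus strand) and Il1b (ENSMUSG00000027398, chr2:129206490-129213059, minus strand) encode the 2 agonists that compete with the antagonist for the same receptor. Il1b had 0.191, 0.351 and 0.213 CPM in untreated libraries, 0.303, 0.317 and 0.477 CPM with eGFP supernatant, 0.531, 0.770 and 0.825 CPM after Ifnb1eGFP supernatant and 0.623, 0.787 and 0.505 CPM with rIFNβ. The libraries with IFNβ all lay above those without, by a narrow margin of 0.505 against 0.477 CPM, and the counts were 6 to 38 per library. Il1b was 1.94-fold higher (95% CI 1.22 to 3.06, adjusted p = 0.0187) with Ifnb1eGFP supernatant and 2.53-fold higher (1.54 to 4.16, adjusted p = 0.00432) with rIFNβ. The first of these calls was lost without the first or second eGFP supernatant library (adjusted p = 0.0679 in both cases), without the third Ifnb1eGFP supernatant library (adjusted p = 0.071) and in DESeq2 (adjusted p = 0.0528). Il1a had 0.668, 0.849 and 0.662 CPM in untreated libraries, 0.657, 0.804 and 0.577 CPM with eGFP supernatant, 0.986, 0.844 and 0.825 CPM after Ifnb1eGFP supernatant and 0.920, 1.06 and 1.11 CPM with rIFNβ. Within each medium its IFNβ libraries lay above the others, but over all 12 libraries they overlapped. The log2 fold change of Il1a was 0.38 (adjusted p = 0.117) with Ifnb1eGFP supernatant, which was not called, and 0.51 (adjusted p = 0.0418) with rIFNβ, a call lost under 12 of 17 alternatives (adjusted p up to 0.203, from DESeq2). Among these were the fits without the first (adjusted p = 0.114) or the third (0.131) untreated library, the second (0.0985) or the third (0.116) rIFNβ library, the first eGFP supernatant library (0.0537) and the first (0.0635), second (0.0528) or the third (0.0538) Ifnb1eGFP supernatant library, the last 4 of which enter a fit of rIFNβ against untreated control through the shared estimate of spread and the scaling. Both genes lie opposite the long noncoding RNA Gm14023, which had 77 counts in all libraries together against 393 for Il1a and 237 for Il1b.

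Per kilobase of exon, the antagonist exceeded the summed agonists Il1a and Il1b in every library, by a ratio of 201.6, 132.8 and 162 in untreated and 163.8, 142.1 and 121 in eGFP supernatant libraries. The ratio was 73.8, 64.8 and 60.0 with Ifnb1eGFP supernatant and 60.8, 51.5 and 54.5 with rIFNβ. It was lower in each library with IFNβ than in each without, with condition means of 66.2 ± 7.00 and 55.6 ± 4.74 against 165.5 ± 34.6 and 142 ± 21.4 (SD, n = 3). The denominator held 27 to 82 counts per library, so the antagonist stayed in large excess on a small base of agonist reads. The ratio is a description whose size depends on the exon lengths used, and no test was run on it.

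The promoters of Il1b, Tnf and Il18 are printed because these genes stand for a small rise, no call in the unpaired test and a large rise. Only the first and second of them hold a match to TATAAA. The Il1b promoter lies at chr2:129213010-129213309 and that of Tnf at chr17:35420934-35421233, both on the minus strand of GRCm39, while that of Il18 lies at chr9:50465750-50466049 on the plus strand. Capitals mark TATAAA on the gene's own strand, which begins at -31 in Il1b and at -29 in Tnf, and 8.32% of 32851 RefSeq promoters hold it.
Il1b promoter: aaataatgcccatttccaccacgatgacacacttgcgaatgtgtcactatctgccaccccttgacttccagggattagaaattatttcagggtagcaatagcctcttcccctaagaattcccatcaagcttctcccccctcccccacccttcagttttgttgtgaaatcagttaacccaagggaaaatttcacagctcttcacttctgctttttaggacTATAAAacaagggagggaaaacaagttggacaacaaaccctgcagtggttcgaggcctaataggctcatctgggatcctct
Tnf promoter: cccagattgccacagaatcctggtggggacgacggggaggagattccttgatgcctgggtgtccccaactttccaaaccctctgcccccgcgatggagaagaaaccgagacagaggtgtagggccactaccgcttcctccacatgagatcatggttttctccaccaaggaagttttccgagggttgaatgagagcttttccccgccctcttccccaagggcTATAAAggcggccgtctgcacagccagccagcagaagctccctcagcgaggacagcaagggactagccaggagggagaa
Il18 promoter: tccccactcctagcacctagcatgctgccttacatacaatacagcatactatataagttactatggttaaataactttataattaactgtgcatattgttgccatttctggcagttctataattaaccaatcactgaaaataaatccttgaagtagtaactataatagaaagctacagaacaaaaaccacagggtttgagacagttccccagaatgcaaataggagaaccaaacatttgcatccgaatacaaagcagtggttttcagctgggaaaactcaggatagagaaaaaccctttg
The table of RefSeq promoters (GRCm38.p6, each matched exactly once to its chromosome in GRCm39) held 9 promoters of 7 members and none of Il10, Il15 and Il27. The core of the interferon-stimulated response element, GAAA repeated after 2 bases on either strand, was found in 0 of the 9 and in 3.44% of all promoters. The GAS motif TTCNNNGAA was likewise found in 0 of the 9 and in 8.3% of all. TGANTCA on either strand was found in 1 promoter each of Il1a, Il1rn and Il6, beside 7.81% of all promoters, and the NF-κB motif in that of Il6, beside 4.51%. Il1a also holds TATAAA, at -32. These matches describe windows of 300 bases and say nothing of what binds there.

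Tnf (ENSMUSG00000024401, chr17:35418357-35420983, minus strand) encodes the inflammatory cytokine TNF. Its level was 23.9, 17.0 and 8.78 CPM in untreated libraries and 19.8, 11.2 and 7.91 CPM with eGFP supernatant. Ifnb1eGFP supernatant libraries had 19.4, 23.1 and 13.6 CPM and rIFNβ libraries 24.9, 25.9 and 17.4 CPM. Libraries with and without IFNβ overlapped in both media, and the library numbered 3 was the lowest of its condition in all 4. Fold changes were 1.44 (95% CI 0.808 to 2.58, adjusted p = 0.262) with Ifnb1eGFP supernatant and 1.38 (0.778 to 2.46, adjusted p = 0.322) with rIFNβ, so neither a small fall nor a rise to more than 2-fold lay outside the intervals. Averaged over both media, a comparison added after the data were seen, Tnf was 1.41-fold higher (0.939 to 2.12, adjusted p = 0.123) with IFNβ. That averaged value was called without the first untreated library (adjusted p = 0.0449) or without the first eGFP supernatant library (adjusted p = 0.0289). Blocking on library number in edgeR's test called Tnf higher with Ifnb1eGFP supernatant (log2 fold change 0.59, adjusted p = 0.031). It did so with rIFNβ (0.54, adjusted p = 0.0414) and in the average (0.56, adjusted p = 0.00568) too. In their deviations from the condition means, all 12 libraries correlated best with a library of their own number in another condition. Whether equal numbers mark the same mouse is unknown, so the unpaired result was kept as the main one. Whether Tnf was called in each medium thus depended on the use of the library number.

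Il6 (ENSMUSG00000025746, chr5:30218112-30224979, plus strand) and Il12b (ENSMUSG00000004296, chr11:44290808-44305505, plus strand) encode interleukin 6 and the p40 chain shared by interleukins 12 and 23, and were close to undetected. Il6 had 4, 1 and 1 counts in untreated libraries, 1, 1 and 0 with eGFP supernatant, 0, 5 and 6 with Ifnb1eGFP supernatant and 5, 1 and 8 with rIFNβ. The sum was 25 counts in the 6 libraries with IFNβ and 8 in the 6 without, with overlapping libraries. Il12b had 2, 0 and 2 counts in untreated libraries, 1 in each eGFP supernatant library and 0 in all 6 with IFNβ, where a count of 0 allows up to 3 counts per library. When genes of low count were kept in the test, Il6 had adjusted p = 0.219 and 0.552 and Il12b adjusted p = 0.238 and 0.158 with Ifnb1eGFP supernatant and rIFNβ. Averaged over both media, Il12b passed the threshold in that test (adjusted p = 0.0402) on its 7 counts in all. No fold change is given, since levels were at or near the floor. The other chains of interleukins 12 and 23 were also near 0, with 2 counts of Il12a and 9 of Il23a over the 12 libraries.

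Il15 (ENSMUSG00000031712, chr8:83054226-83129874, minus strand) had 10.8, 12.4 and 12.3 CPM in untreated libraries and 11.8, 15.6 and 11.7 CPM with eGFP supernatant. It had 84.2, 75.3 and 73.4 CPM with Ifnb1eGFP supernatant and 86.1, 77.4 and 76.0 CPM with rIFNβ. The lowest library with IFNβ was above 70 CPM and the highest without it was the second eGFP supernatant library, the one with raised interferon-stimulated genes. Il15 rose 5.95-fold (95% CI 5.03 to 7.05, adjusted p = 6.51e-09) with Ifnb1eGFP supernatant and 6.73-fold (5.67 to 7.99, adjusted p = 3.85e-09) with rIFNβ. Il18 (ENSMUSG00000039217, chr9:50466081-50493633, plus strand) had 4.45, 3.81 and 3.88 CPM in untreated libraries, 4.04, 4.75 and 4.27 CPM with eGFP supernatant, 21.1, 18.8 and 18.4 CPM after Ifnb1eGFP supernatant and 20.5, 19.2 and 18.8 CPM with rIFNβ. Here too the second eGFP supernatant library was the highest without IFNβ, far below the lowest with it. Il18 rose 4.46-fold (3.90 to 5.09, adjusted p = 4.2e-09) and 4.82-fold (4.22 to 5.52, adjusted p = 2.82e-09). Without the second eGFP supernatant library the log2 fold change with Ifnb1eGFP supernatant went from 2.57 to 2.73 for Il15 and from 2.16 to 2.22 for Il18. The Il18 gene shares 403 bases with Bco2 on the opposite strand, which had 2089 counts in all against 5685.

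**Figure D2:**
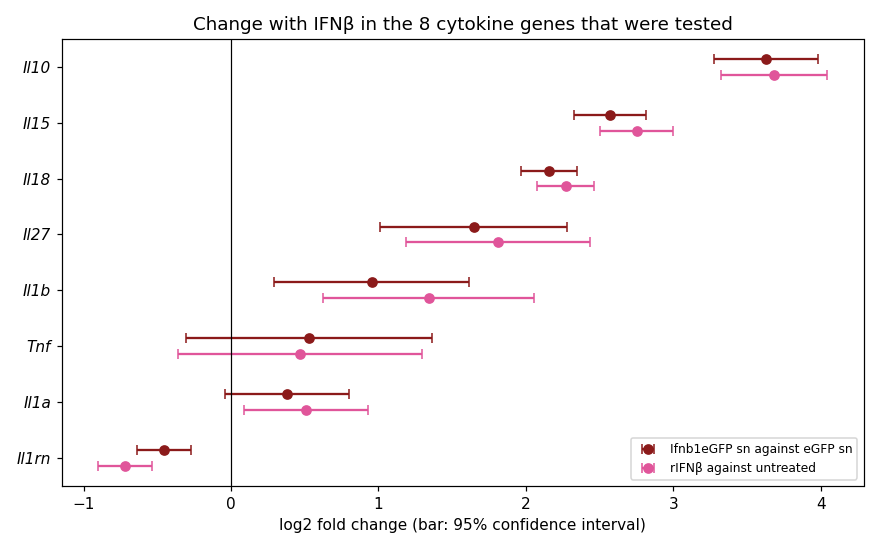
Log2 fold change with its 95% confidence interval for the 8 tested cytokine genes, with Ifnb1eGFP supernatant against eGFP supernatant and rIFNβ against untreated control (3 libraries per condition). Il10, Il15, Il18, Il27 and Il1b lie right of 0 in both and Il1rn lies left of 0 in both. The intervals of Tnf span 0 in both, and that of Il1a spans 0 with Ifnb1eGFP supernatant alone.

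Whether IFNβ from tumor cells and rIFNβ left the cytokine genes at the same level was asked by comparing Ifnb1eGFP supernatant with rIFNβ. None of the 8 tested genes was called by edgeR's quasi-likelihood test, beside 0.16% of all tested genes, nor any of the 5 to which DESeq2 gave an adjusted p, and 1 of the 8, Il1rn, had an unadjusted p under 0.05. The ratio of Ifnb1eGFP supernatant to rIFNβ was 0.928 (95% CI 0.764 to 1.13) for Il10, 0.972 (0.833 to 1.13) for Il15 and 0.997 (0.883 to 1.13) for Il18. It was 0.756 (0.515 to 1.11) for Il27, 1.11 (0.718 to 1.71) for Il1b, 0.858 (0.647 to 1.14) for Il1a and 0.822 (0.466 to 1.45) for Tnf. The intervals were thus narrow for Il10, Il15 and Il18 and left room for larger differences in Il27, Il1a, Il1b and Tnf. Il1rn was 1.16-fold higher with Ifnb1eGFP supernatant (1.02 to 1.31, adjusted p = 0.563), with no overlap between the libraries.

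eGFP supernatant without IFNβ was compared with untreated control as the background of the system. It called 0 of the 8 genes in edgeR's quasi-likelihood test and in DESeq2, 0 had an unadjusted p under 0.05, and 0.299% of all tested genes were called. The largest absolute log2 difference was 0.54 for Il1b (95% CI -0.22 to 1.29, adjusted p = 0.807). Averaged over both states of IFNβ, supernatant likewise called 0 of the 8 in edgeR's test (0 at an unadjusted p under 0.05) and 0 of the 6 with an adjusted p in DESeq2, beside 0.905% of all tested genes. The interaction, which tests whether the response to IFNβ differed between the media, called 0 of the 8 and 0% of all tested genes, with 661 genes at an unadjusted p under 0.05. DESeq2 called 16 genes for the interaction and gave an adjusted p to 2 of the 8, neither of them called. Il1rn alone among the 8 had an unadjusted p under 0.05 for the interaction, with a difference between its log2 fold changes of 0.27 (0.01 to 0.52, adjusted p = 0.926).

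Averaged over both media, a comparison added after the data were seen, 6 of the 8 genes were higher with IFNβ and 1 was lower, beside 36.1% and 30.1% of all tested genes. The 6 were those called with rIFNβ, Il1a among them at a log2 difference of 0.44 (adjusted p = 0.0128), a call lost in DESeq2 (adjusted p = 0.0934) and without the filter on low counts (adjusted p = 0.07). In 5 of the 8 (Il10, Il15, Il18, Il27 and Il1b) all 6 libraries with IFNβ lay above all 6 without, as in 25.5% of all tested genes, and in 1 of the 8 (Il1rn) below, as in 21.2%.

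Levels were set side by side between genes as CPM per kilobase of exon, with all annotated exons of a gene merged. That length was 6939 bases for Il15, 5536 for Il1rn and 1639 for Tnf. The order of genes and their shares depend on these lengths, whichever transcripts were in use. In untreated libraries the order was Il1rn (49.2 ± 4.76), Tnf (10.1 ± 4.61), Il15 (1.71 ± 0.124), Il18 (1.34 ± 0.117), Il10 (0.446 ± 0.138), Il27 (0.277 ± 0.0648), Il1a (0.208 ± 0.0305) and Il1b (0.0967 ± 0.0334), each as mean and SD of 3 libraries, with Il6 and Il12b under 0.03. Adjacent genes from Il1rn to Il10 did not overlap in that order, whereas Il27 overlapped with its neighbor Il1a. With Ifnb1eGFP supernatant the order was Il1rn (34.7 ± 1.36), Tnf (11.4 ± 2.95), Il15 (11.2 ± 0.829), Il18 (6.46 ± 0.475), Il10 (5.35 ± 0.316), Il27 (0.749 ± 0.166), Il1b (0.273 ± 0.0601) and Il1a (0.254 ± 0.0252). There Tnf and Il15 overlapped, as did Il1a and Il1b, while Il18 stayed above Il10 in every library. With rIFNβ the levels were 29.9 ± 1.71 for Il1rn, 13.9 ± 2.81 for Tnf, 11.5 ± 0.787 for Il15, 6.48 ± 0.288 for Il18 and 5.76 ± 0.394 for Il10. Summed over the 10 genes the level was 63.5 ± 9.32 in untreated, 59.7 ± 7.74 in eGFP supernatant, 70.4 ± 4.53 in Ifnb1eGFP supernatant and 69.1 ± 4.70 in rIFNβ libraries. Of this sum Il1rn made up 78.0% and 79.8% without IFNβ and 49.3% and 43.3% with it, in the same order of conditions. The share of Il15 was 2.74% and 3.17% without IFNβ and 15.9% and 16.7% with it, that of Il18 2.14% and 2.45% against 9.18% and 9.39%, and that of Il10 0.714% and 0.724% against 7.64% and 8.39%. Tnf took 15.4%, 12.9%, 16.1% and 19.9%, so the make-up of the transcripts shifted from the antagonist toward Il15, Il18 and Il10 while the sums of the 10 genes overlapped between conditions.

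**Figure D3:**
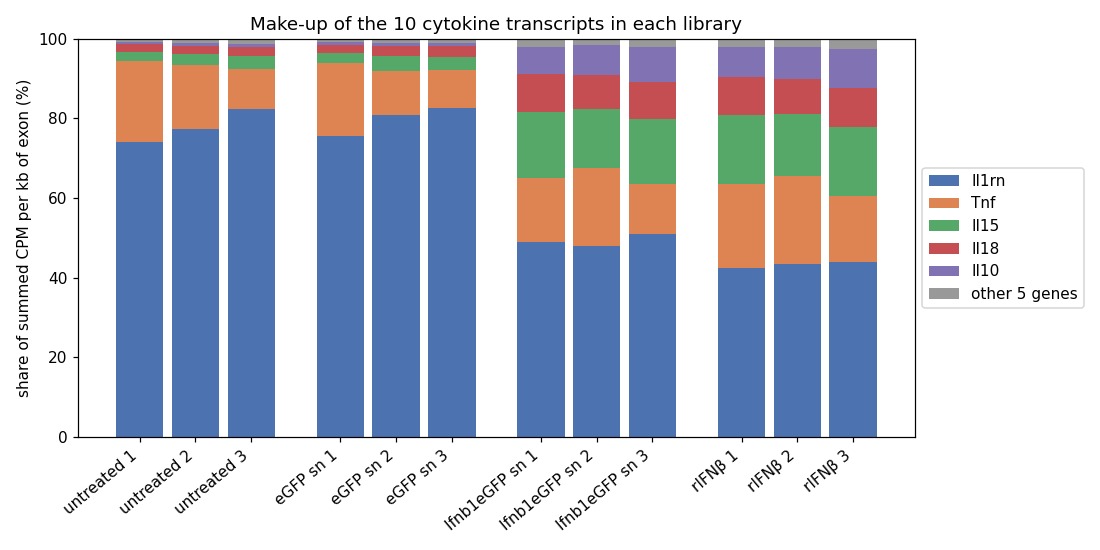
Share of each gene in the summed CPM per kilobase of exon of the 10 cytokine genes (%), as stacked bars for the 12 libraries. Il1rn takes 74.2% to 82.7% in each library without IFNβ and 42.6% to 51.0% in each with it, and Il15, Il18 and Il10 take the larger part of the difference.

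Receptors and soluble binding proteins of these cytokines numbered 18, of which 15 were tested. With Ifnb1eGFP supernatant 11 rose and 3 fell, and with rIFNβ 11 rose and 4 fell, with median log2 fold changes of 0.67 and 0.77, beside 30.1% higher and 25% lower among all tested genes in the former comparison and 30.7% and 24.6% in the latter. The smallest adjusted p values belonged to Il18bp, Il10rb and Il10ra. Il18bp, whose secreted protein binds and blocks IL-18, was at 4.57 ± 0.432 CPM in untreated and 4.82 ± 0.694 CPM in eGFP supernatant libraries and at 67.5 ± 0.721 and 67.1 ± 2.74 CPM with Ifnb1eGFP supernatant and rIFNβ (SD, n = 3). Its log2 fold change was 3.81 ± 0.09 (SE, adjusted p = 1.54e-10) and 3.88 ± 0.09 (adjusted p = 1.24e-10), beside 2.16 and 2.27 for Il18 itself. Il10ra, the chain that binds IL-10, rose by a log2 fold change of 0.96 (adjusted p = 1.68e-08) and 1.09 (adjusted p = 5.77e-09), and Il10rb, its partner, by 0.73 (adjusted p = 1.48e-08) and 0.77 (adjusted p = 8.53e-09). Il15ra and Il27ra were named after their values were seen. Il15ra, which presents IL-15, rose by 2.04 (adjusted p = 4.84e-07) and 2.03 (adjusted p = 5.61e-07), and Il27ra, the receptor chain of IL-27, fell by 1.82 (adjusted p = 3.38e-08) and 1.91 (adjusted p = 1.82e-08) on the log2 scale.

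**Figure D4:**
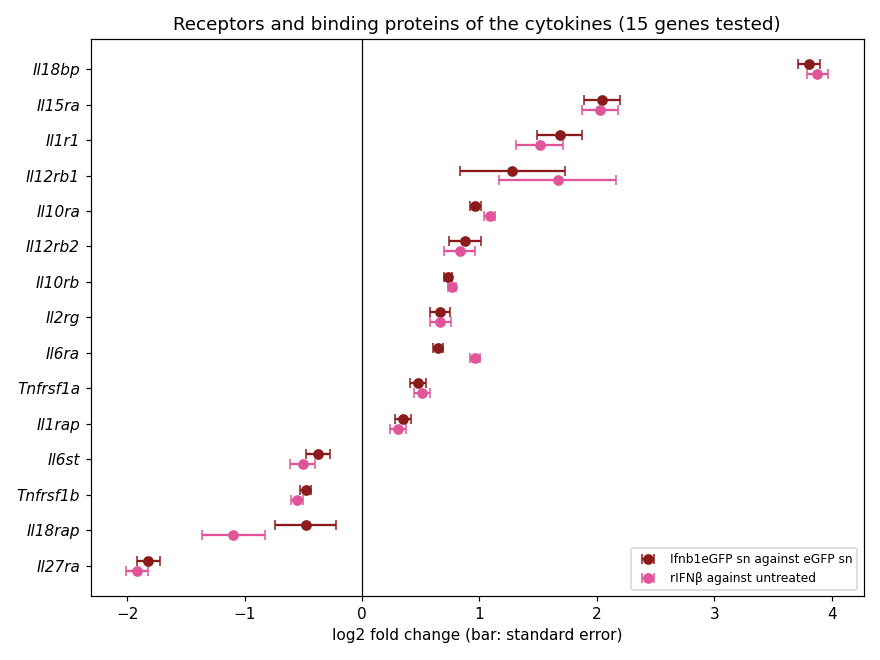
Log2 fold change with its standard error for the 15 tested receptors and binding proteins, with Ifnb1eGFP supernatant against eGFP supernatant and rIFNβ against untreated control. Il18bp lies farthest right at 3.81 and 3.88 and Il27ra farthest left at -1.82 and -1.91.

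Genes for the processing and release of IL-1β, IL-18 and TNF were all tested, and 8 of the 10 rose and 1 fell in each comparison, with medians of 0.59 and 0.67, where 30.1% and 30.7% of all tested genes rose and 25% and 24.6% fell. Casp4, a caspase that senses cytosolic lipopolysaccharide, Casp1, which cleaves the precursors of IL-1β and IL-18, and Gsdmd, which forms the pore for their release, had the smallest adjusted p values. Their log2 fold changes were 1.72, 1.09 and 0.73 with Ifnb1eGFP supernatant (adjusted p = 1.67e-08, 1.52e-07 and 3.85e-07) and 1.62, 1.10 and 0.82 with rIFNβ. The gene that fell was Adam17, the sheddase of membrane TNF, by 0.19 (adjusted p = 0.00217) and 0.27 (adjusted p = 0.00018) on the log2 scale. Of 20 genes known to control the transcription or mRNA stability of such cytokines, 13 rose and 3 fell with Ifnb1eGFP supernatant and 14 rose and 2 fell with rIFNβ, with medians of 0.54 and 0.66, against the same shares of all tested genes. Tnfaip3, an inhibitor of NF-κB signaling, fell by 1.59 (adjusted p = 1.79e-08) and 1.34 (adjusted p = 6.08e-08) on the log2 scale. Zfp36l1, a protein that destabilizes mRNAs with AU-rich elements, was higher by 1.57 (adjusted p = 1.27e-07) and 1.94 (adjusted p = 2.59e-08), and Stat3, which carries the signal of IL-10, by 0.67 (adjusted p = 2.43e-07) and 0.72 (adjusted p = 1.22e-07). Among 20 other cytokines just 8 were tested, of which 2, Lif and Osm, rose in both comparisons, beside 30.1% and 30.7% of all tested genes. With Ifnb1eGFP supernatant 1 of the 8 fell and with rIFNβ 2 fell, beside 25% and 24.6%. Lif changed by 1.44 (adjusted p = 0.0039) and 1.08 (adjusted p = 0.0167) and Osm by 0.37 (adjusted p = 0.028) and 0.54 (adjusted p = 0.00397). Tgfb1 was called lower with Ifnb1eGFP supernatant alone, at -0.48 (adjusted p = 0.0488) against -0.21 (adjusted p = 0.372) with rIFNβ, and the 2 called lower with rIFNβ were Il7 and Il36g.

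The genes most like each member were found by Pearson's r of log2 CPM over the 12 libraries, as a description. The libraries fall into those with and without IFNβ, so a high r mostly restates that split. Il10 was most like Nod2 (r = 0.997) and Il18bp (r = 0.996), Il15 like Tlr3 and Mppe1 (r = 0.999 for both) and Il18 like Crybg1 and Ly86 (r = 0.999 for both). Il27 was most like Rnase6 (r = 0.976) and Trim34b (r = 0.975), and Il1rn like Tfrc (r = 0.984) and Pcyt1a (r = 0.979). The members with few counts or wide spread had lower values, with Il1b most like Helb (r = 0.960), Il1a like Clec10a (r = 0.946) and Tnf like Akr1c18 (r = 0.918).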

How the data were processed

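RNA of M2-like BMDM was measured in 12 libraries, 3 for each of 4 conditions. From TruSeq Stranded Total RNA libraries the authors aligned reads with RSEM 1.3.3 and deposited expected counts per Ensembl gene, not normalized or filtered. Their reference is named GRCm39 mm10, which joins 2 builds, so positions given here are those of GENCODE M39 on GRCm39, which held 56017 of the 56748 genes. Whether counting used the strand is not given in the sources used here.

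Expected counts were rounded, since 11.5% were not whole. Genes passing filterByExpr were scaled by TMM and fitted in 1 model over all 12 libraries with edgeR 4.0.16 (R 4.3.3), whose quasi-likelihood test gave p values, adjusted over the 15033 genes tested by Benjamini-Hochberg. A gene was called at an adjusted p of at most 0.05. Standard errors were approximated as the log2 fold change divided by the root of the F statistic, and 95% intervals from them cover the spread between libraries. Levels are CPM on TMM-scaled totals. Totals were 31526004 to 45348410 counts, and the floor was 3 counts per library. Exon lengths were those of all GENCODE exons of a gene merged. The test was checked on simulated data.

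The cytokine genes, the lists of related genes and the markers were chosen with earlier results of these data known, so their counts are descriptions. From each list all partner subunits or the 3 genes with the smallest adjusted p with Ifnb1eGFP supernatant were named, as were the 2 genes most like each cytokine gene. Genes outside this rule are Il15ra, Il27ra, Adam17, Il7 and Il36g, named after their values were seen, and the overlapping, marker and interferon-stimulated genes used to check the libraries. Alternatives were DESeq2 1.42.0, RLE factors, no filter, the replicate number as a block, the stricter threshold, only the compared conditions, and each library left out in turn. Averaging over both media was added after the data were seen.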

Additional observations from a re-analysis of the deposited data

How the results depend on the processing

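For the 8 tested genes, the log2 fold changes of the comparisons with IFNβ in supernatant and with rIFNβ were recomputed 272 times under the alternatives. None changed direction, 254 kept their side of the threshold, 16 lost it (Il1b with Ifnb1eGFP supernatant 4 times, Il1a with rIFNβ 12 times) and 2 gained it. The 517 values of the other comparisons named in the design all stayed uncalled, leaving out those to which DESeq2 gave no adjusted p. Averaged over both media, Il1a lost its call in DESeq2 (adjusted p = 0.0934) and without the filter (adjusted p = 0.07). Under the stricter threshold 3 genes were higher and 0 lower with Ifnb1eGFP supernatant, with rIFNβ, and averaged over both media. Without the filter on low counts 2 genes were lower in the average, Il1rn and Il12b.

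With the replicate block, 6 genes were higher and 1 lower with Ifnb1eGFP supernatant, 7 higher and 1 lower with rIFNβ and in the average, and 0 in the other comparisons. The gene gained was Tnf (log2 fold change 0.59, adjusted p = 0.031, with Ifnb1eGFP supernatant, 0.54, adjusted p = 0.0414, with rIFNβ, and 0.56, adjusted p = 0.00568, in the average). Deviations of equally numbered libraries correlated with r of 0.0582 to 0.252, above 0.1 in 13 of 18 pairs, and 12 of 12 libraries correlated best with their own number. The design does not say whether the numbers pair the libraries. The model of all 12 libraries was therefore left unpaired, and the block was kept as an alternative. Il6 and Il12b, with 33 and 7 counts in all, were too shallow for the filter. Over all tested genes DESeq2 called 115 for Ifnb1eGFP supernatant against rIFNβ (edgeR 24), 204 for eGFP supernatant against untreated control (45), 347 for supernatant averaged (136) and 16 for the interaction (0).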
